A study of Mus musculus with 2 samples.

Results

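The p53 pathway and target genes are described here as 31 genes that hold p53 itself (*Trp53*), its relative *Trp73*, the regulators of p53 protein, and genes that p53 switches on for growth arrest, cell death and DNA repair. They were chosen by name, as the non-control probes of the array whose gene name is one of the 31, out of 37073 gene names on the array. The question was whether the lower replication genes of cells with *Ppp2r5d* knockdown came together with higher p53 target genes. The cells were MCMs, mouse cardiomyocytes from a commercial supplier that had been grown through several passages. The control culture received siRNA-NC, which has no intended target, and the other culture siRNA-*Ppp2r5d*, which targets the mRNA of a B′ regulatory subunit of protein phosphatase 2A (PP2A). Both cultures received Lipofectamine RNAiMAX, were moved to medium with no glucose 48 h after transfection and gave RNA at 64 h. With 1 array per condition, the effect of the siRNA cannot be told apart from other differences between the cultures, and no p-value was computed.

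p53 is a transcription factor that is made and destroyed continuously. MDM2 tags it for degradation and MDM4 covers its activation domain, while ARF, a product of the *Cdkn2a* locus, holds MDM2 back. After DNA damage or other stress p53 protein is stabilised and modified, and it binds pairs of short half-sites near its target genes. The first targets to be switched on usually include *Cdkn1a*, *Mdm2* itself, which closes a feedback loop, and *Ccng1*. Cyclin G1, the product of *Ccng1*, binds B′ subunits of PP2A and brings the phosphatase to MDM2. Target mRNAs therefore serve as a readout of p53, while the level of *Trp53* mRNA says little about p53 protein, which was not measured by these arrays.

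The promoters of the genes were searched for the p53 half-site consensus, a motif of 10 letters that reads the same on both strands, so that a single search covers both. RefSeq promoter windows of GRCm38.p6, from 250 bases before to 50 bases after each start, were at hand for 23 of the 31 genes. A half-site was present in the windows of 9 genes, or 39.1% of those with a window, where 9.55% of 27025 genes in the table held one. These genes were *Trp53*, *Mdm2*, *Cdkn1a*, *Ccng1*, *Gadd45a*, *Sesn1*, *Ei24*, *Aen* and *Polk*. A pair of half-sites at most 13 bases apart was present in 1 window of these genes, that of *Cdkn1a*, and in 24 of all 32851 windows (0.0731%). *Pmaip1*, *Perp*, *Ddb2*, *Xpc*, *Trp53inp1*, *Tnfrsf10b*, *Zmat3* and *Rrm2b* were not in the promoter table. The windows of *Ei24*, the gene with the highest fold change of the 31, and of 3 classical targets are shown in part, with the half-sites in capitals, read 5′ to 3′ along the strand of the gene. The stretches lie at chr9:36797335-36797374 (minus strand) for *Ei24*, chr17:29090876-29090967 (plus strand) for *Cdkn1a*, chr10:117710905-117710974 (minus strand) for *Mdm2* and chr11:40755432-40755501 (minus strand) for *Ccng1*.
Ei24: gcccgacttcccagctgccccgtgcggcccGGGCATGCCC
Cdkn1a: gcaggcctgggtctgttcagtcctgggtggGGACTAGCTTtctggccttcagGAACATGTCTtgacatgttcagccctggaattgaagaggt
Mdm2: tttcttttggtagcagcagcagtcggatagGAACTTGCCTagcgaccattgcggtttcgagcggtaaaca
Ccng1: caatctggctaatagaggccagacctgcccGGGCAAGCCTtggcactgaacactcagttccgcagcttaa

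Counted to its first base, the half-site of *Ei24* began 10 bases before the start, those of *Cdkn1a* 73 and 51 bases, that of *Mdm2* 186 bases and that of *Ccng1* 185 bases before it. *Aen* held GGGCTTGTCC. A match of letters is a description of the sequence and not a site that p53 was seen to bind. The median log2 fold change of siRNA-*Ppp2r5d* over siRNA-NC, given gene by gene further on, was 0.23 over the 9 genes with a half-site and 0.087 over the 13 measured genes with a window and none. Genes with no window, among them *Tnfrsf10b*, *Zmat3* and *Ddb2*, were in neither group, and the difference was not tested.

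Outside the control spots each array had 59305 spots, of which the siRNA-NC array showed 35544 and the siRNA-*Ppp2r5d* array 35174 well above background, with 0 saturated. Signals are scanner intensities corrected for background. Their 75th percentile stood at 593 on the siRNA-NC array and at 519 on the siRNA-*Ppp2r5d* array, so equal raw signals correspond to a log2 fold change of 0.19 after this percentile was subtracted on the log2 scale. The signal of *Ppp2r5d* itself was 4701 with siRNA-NC and 676 with siRNA-*Ppp2r5d*, a log2 fold change of -2.60. Of 14 cardiomyocyte markers, 10 could be detected on 1 array or both, while *Actn2*, *Myl2*, *Myl7* and *Pln* were not well above background on either. The brightest probes of the 14 had summed signals of 9690 with siRNA-NC and 9027 with siRNA-*Ppp2r5d*, of which *Actc1* gave 6443 and 5268. The 8 markers measured on both arrays had a median log2 fold change of 0.25. Among markers of other cells, 7 of 9 for fibroblasts (*Thy1* and *Tcf21* not well above background), 4 of 4 for smooth muscle, 1 of 5 for endothelium (*Pecam1*) and 3 of 4 for immune cells (*Adgre1* not) were well above background, with median log2 fold changes of -0.049, 0.41, -0.23 and 0.13. Summed in the same way, signals with siRNA-NC and siRNA-*Ppp2r5d* were 302556 and 282804 for fibroblast markers and 141925 and 129727 for smooth muscle markers. They were 84.1 and 52.4 for endothelial markers and 2106 and 1529 for immune markers. The part of cell make-up in the values given here was not tested, and fewer cells of a type and less RNA per cell cannot be told apart in such cultures.

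The 31 genes were represented by 64 probes with 1 spot each. Both arrays detected 59 of these probes well above background, and neither array the other 5, which left 30 genes with a value. Log2 fold changes were averaged over the detected probes of a gene. Its error is the error that the scanner software gives for the spots, about 0.20 for a single probe, which leaves out the spread between cultures. The SD of the log2 ratio between spots of the same probe was smaller, with a median of 0.036 over 293 probes with 10 spots.

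More p53 pathway genes were higher than lower with siRNA-*Ppp2r5d* when the arrays were scaled to their 75th percentile, but as many were lower as higher when they were scaled to spike-in probes. The median log2 fold change was 0.18 over the 30 genes, and 24 of them (80.0%) lay above 0, where the median of all 20350 measured genes was 0.026 and 54.2% lay above 0. Relative to the median of all genes, 22 of the 30 were higher. Scaling to spike-in probes shifted the median over all genes to -0.16, and on that scale 15 of the 30 genes lay above 0 and 15 below. This scaling moves every gene by the same amount, so the count of 22 above the median of all genes cannot change. 4 genes were at least 1.5-fold higher, *Ei24*, *Tnfrsf10b*, *Zmat3* and *Eda2r*, and 0 were 1.5-fold lower. The share of all genes that were 1.5-fold higher or more was 3.36%, and the share 1.5-fold lower or more 4.64%. Under spike-in scaling *Zmat3* and *Eda2r* dropped below 1.5-fold, and 1.82% of all genes were 1.5-fold higher or more. On that scale 83.5% of all genes past 1.5-fold were lower, against 58.0% under the percentile scaling. *Ei24* alone was past 2-fold, the threshold of the study's methods, which 0.885% of all genes passed upward and 1.07% downward. It dropped below 2-fold, to a log2 fold change of 0.86 under spike-in scaling, 0.79 with normexp correction and 0.98 with the brightest probe or the median over probes. Just inside the threshold of 1.5-fold stood *Eda2r* with a log2 fold change of 0.60, and just outside it *Aen* with 0.42.

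**Figure D1:**
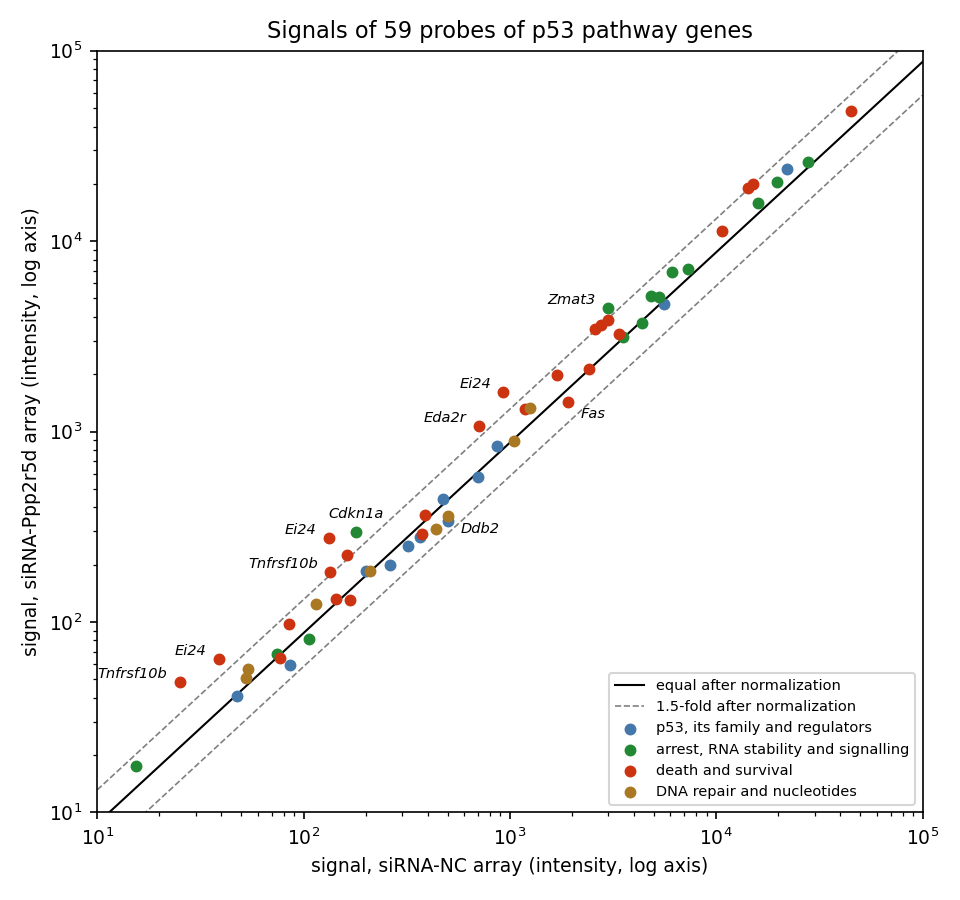
Each point is 1 of 59 probes of p53 pathway genes that both arrays detected, with its signal for siRNA-NC on the horizontal axis and for siRNA-*Ppp2r5d* on the vertical axis, both on log axes and coloured by the role of the gene. The solid line marks equal levels after normalization and the dashed lines 1.5-fold. 13 probes lie on or above the upper dashed line, among them 3 of *Ei24* and 3 of *Tnfrsf10b*, and 0 lie below the lower one.

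The measured genes among p53, its relative and its regulators ranged from -0.23 for *Mdm4* to 0.20 for *Mdm2*, and none was past 1.5-fold. The signals of *Trp53* were 864 with siRNA-NC and 838 with siRNA-*Ppp2r5d*, a log2 fold change of 0.15 with an error of 0.20. *Mdm2* had signals of 22077 and 23848 at its bright probe and 475 and 444 at its dim probe, with log2 fold changes of 0.30 and 0.093 and a mean of 0.20. Both probes lay above 0, and the mean exceeded its scanner error of 0.14 under the percentile scaling. Under spike-in scaling the mean was 0.017, within that error. *Mdm4*, whose product restrains p53 with MDM2, went the other way at 6 of 6 probes. The signals of its probes were 701, 499, 365, 321, 261 and 86.0 for siRNA-NC, against 578, 337, 278, 250, 200 and 59.6 for siRNA-*Ppp2r5d*. Their log2 fold changes ranged from -0.37 to -0.086, with a mean of -0.23 (SD over probes 0.11), or 1.17-fold lower.

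*Trp73*, which encodes the p53 relative p73, was measured by 1 of 3 probes, with signals of 47.6 and 40.9 and a log2 fold change of -0.027. *Trp53inp1*, which encodes a nuclear protein that acts with p53 in stress responses, had signals of 5563 and 4681 at its bright probe and 201 and 185 at its dim one. The log2 fold changes of these probes were -0.056 and 0.074, one on either side of 0. Both probes of *Cdkn2a*, the locus of ARF and p16, were not well above background on either array, with signals of 3.05 and 2.98 for siRNA-NC and 2.71 and 2.74 for siRNA-*Ppp2r5d*, so no fold is given. The median over the 5 measured genes of p53, its family and regulators was 0.0085.

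Among 10 genes for growth arrest, RNA stability and signalling, 9 lay above 0, and the median log2 fold change was 0.22. That count belongs to the percentile scaling, under which 54.2% of all genes lay above 0. Under spike-in scaling *Btg2*, *Gadd45a*, *Sesn1*, *Gdf15* and *Plk3* lay below 0. *Zmat3*, an RNA-binding protein that p53 induces, had the highest value. Its single probe read 2992 with siRNA-NC and 4434 with siRNA-*Ppp2r5d*, which gives a log2 fold change of 0.76 with an error of 0.20, or 1.69-fold. *Cdkn1a* encodes p21, the inhibitor of cyclin-dependent kinases through which p53 arrests the cell cycle. Its bright probe had signals of 15855 and 15871, a log2 fold change of 0.19. A dim probe had 180 and 296, a log2 fold change of 0.91, and another dim probe had 106 and 81.3, a log2 fold change of -0.19. The mean was 0.31 and the SD over the 3 probes 0.56, so the probes of *Cdkn1a* disagreed by more than their scanner errors. The scanner files place the probe with 0.91 at chr17:29227986-29228045 and the bright probe at chr17:29237377-29237436 of mm9, and assign them to different RefSeq transcripts of the gene. Whether these transcripts differed in level was not tested.

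*Ccng1* had signals of 6134 and 6911, a log2 fold change of 0.36. *Plk2*, a polo-like kinase induced by stress, had 4853 and 5183, a log2 fold change of 0.29. For both, the value was larger than the error of 0.20 under the percentile scaling and below 1.5-fold. Under spike-in scaling *Ccng1* had 0.18 and *Plk2* 0.11, both within that error. The 2 probes of *Btg2*, an antiproliferative gene, were nearly alike, with signals of 7335 and 7146 at the first and 5268 and 5122 at the second, and log2 fold changes of 0.16 and 0.15. *Gadd45a*, a growth arrest gene induced by DNA damage, had signals of 19745 and 20345 at its bright probe and 74.3 and 68.3 at its dim one, with log2 fold changes of 0.24 and 0.071. *Rprm*, a p53-induced gene of arrest in G2, was close to the detection limit, with signals of 15.4 and 17.5 and a log2 fold change of 0.37 with an error of 0.42.

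The other genes of this role were near 0. *Sesn1*, a sestrin of the antioxidant and mTOR response, had signals of 3533 and 3147 and a log2 fold change of 0.026. *Gdf15*, a secreted stress cytokine, was bright on both arrays, at 27872 and 25912, with a log2 fold change of 0.087 that turned to -0.044 under quantile normalization. *Plk3*, another polo-like kinase, had 4362 and 3713, a log2 fold change of -0.040. None of these 3 values exceeded its error of 0.20 under the percentile scaling.

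**Figure D2:**
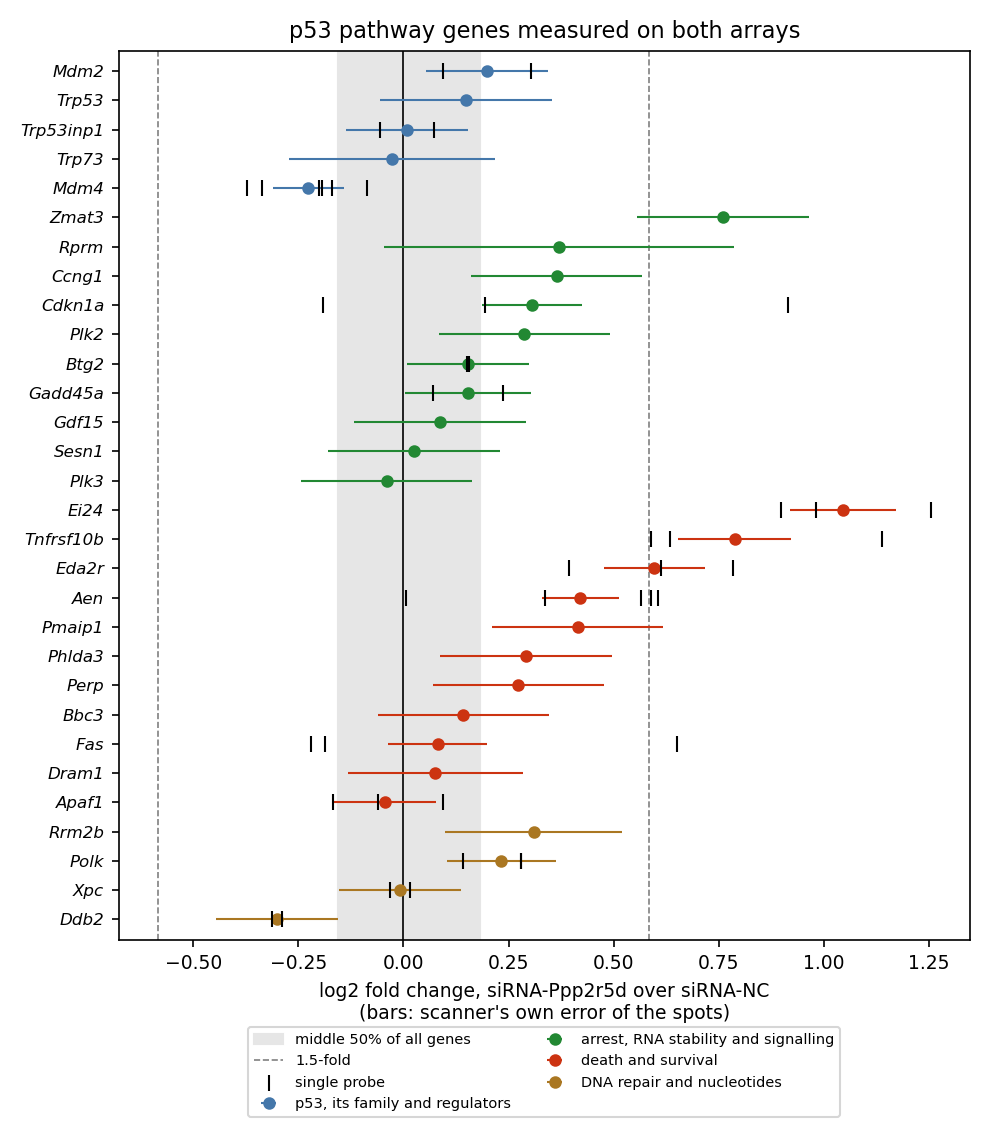
Log2 fold changes of siRNA-*Ppp2r5d* over siRNA-NC are plotted for 30 p53 pathway genes, grouped by role. Coloured points are gene values, bars the scanner's own error of the spots, black ticks the single probes of genes with several, and the grey band the middle 50% of all genes, from -0.15 to 0.18. *Ei24*, *Tnfrsf10b*, *Zmat3* and *Eda2r* lie right of the dashed line at 1.5-fold, and *Ddb2* and *Mdm4* are the genes left of the grey band.

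Genes of cell death and survival had the highest values, with 10 of 11 above 0 and a median log2 fold change of 0.29. That count belongs to the percentile scaling, under which 54.2% of all genes lay above 0. Under spike-in scaling *Fas*, *Apaf1*, *Bbc3* and *Dram1* lay below 0. *Ei24* encodes a membrane protein of the endoplasmic reticulum that was first described as a gene induced by etoposide through p53. Its probes had signals of 931, 132 and 39.1 for siRNA-NC and of 1608, 276 and 63.7 for siRNA-*Ppp2r5d*. All 3 were higher, with log2 fold changes of 0.98, 1.25 and 0.90, and the mean was 1.04 (SD over probes 0.19, scanner error 0.13), or 2.06-fold. *Tnfrsf10b*, the death receptor for TRAIL, had signals of 2756, 135 and 25.1 for siRNA-NC and of 3628, 183 and 48.4 for siRNA-*Ppp2r5d*. Its 3 probes were all higher, with log2 fold changes of 0.59, 0.63 and 1.14 and a mean of 0.79 (SD over probes 0.31), or 1.73-fold. The highest of the 3 came from the dimmest probe. *Eda2r*, a receptor of the same family that binds ectodysplasin A2, had signals of 2587, 710 and 85.2 for siRNA-NC and of 3460, 1070 and 98.0 for siRNA-*Ppp2r5d*. The log2 fold changes were 0.61, 0.78 and 0.39 with a mean of 0.60 (SD over probes 0.20), or 1.51-fold.

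*Fas*, the third death receptor among the genes, did not share this direction at all probes. Its bright probe had signals of 1913 and 1437, a log2 fold change of -0.22, and a dim probe had 163 and 224, a log2 fold change of 0.65. The remaining probe, with 375 and 288 and a log2 fold change of -0.19, was placed on chromosome 4 of mm9 by the scanner files, whereas *Fas* lies on chromosome 19. The mean was 0.08 with this probe and 0.22 without it, so the direction of *Fas* depended on the probe chosen. *Aen*, an exonuclease of apoptosis, was higher at 5 of 5 probes, with a mean log2 fold change of 0.42. Its signals were 15106, 14288, 2985, 2414 and 1190 for siRNA-NC and 19886, 19013, 3866, 2121 and 1314 for siRNA-*Ppp2r5d*. The log2 fold changes in the same order were 0.59, 0.60, 0.57, 0.0062 and 0.34, and the first 2 probes overlap on the genome.

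The remaining death genes were all below 1.5-fold. *Pmaip1*, which encodes the BH3-only protein NOXA, had signals of 1698 and 1980, a log2 fold change of 0.41. *Bbc3*, which encodes the BH3-only protein PUMA, had 3374 and 3260, a log2 fold change of 0.14 that lay within its error of 0.20. *Phlda3*, an inhibitor of AKT at the membrane, had 44831 and 48030, a log2 fold change of 0.29. *Perp*, a membrane protein of desmosomes and apoptosis, had 10673 and 11288, a log2 fold change of 0.27. *Pmaip1*, *Phlda3* and *Perp* exceeded their errors of 0.20 under the percentile scaling. Under quantile normalization *Phlda3* had 0.16 and *Perp* 0.18, both within that error. Under spike-in scaling these 2 had 0.11 and 0.092, while *Pmaip1* had 0.23. *Dram1*, a lysosomal protein of autophagy, had signals of 143 and 132 and a log2 fold change of 0.076. *Apaf1*, the scaffold of the apoptosome, had signals of 390, 167 and 77.0 for siRNA-NC and 364, 130 and 64.6 for siRNA-*Ppp2r5d*. Its probes lay on both sides of 0, from -0.17 to 0.095, with a mean of -0.045.

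The 4 genes of DNA repair and nucleotide supply were split, with 2 above and 2 below 0 and a median log2 fold change of 0.11. *Ddb2*, a subunit of the complex that finds ultraviolet damage and a p53 target in human cells, had the lowest value of all 30 genes. Its probes had signals of 503 and 439 for siRNA-NC and of 361 and 309 for siRNA-*Ppp2r5d*, with log2 fold changes of -0.29 and -0.31 and a mean of -0.30, or 1.23-fold lower. *Xpc*, its partner in nucleotide excision repair, had signals of 1045 and 210 for siRNA-NC and 894 and 185 for siRNA-*Ppp2r5d*, with a mean of -0.0088. *Rrm2b*, the p53-inducible small subunit of ribonucleotide reductase, was measured by 1 of 2 probes, with signals of 115 and 125 and a log2 fold change of 0.31. *Polk*, a polymerase that copies past damaged bases, had signals of 1249, 53.6 and 52.8 for siRNA-NC and 1326, 56.9 and 50.9 for siRNA-*Ppp2r5d*, with a mean of 0.23 and all 3 probes above 0.

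Probes of the same gene were compared with each other within the same 2 arrays. Under the percentile scaling, 10 of 15 genes with several probes above background had all probes on one side of 0. The other 5 had probes on both sides, namely *Cdkn1a*, *Fas*, *Apaf1*, *Xpc* and *Trp53inp1*. These counts and names belong to that scaling, since spike-in scaling moves all probes by the same amount and can change their side of 0. Such a shift leaves the differences between probes of a gene as they were. Probes of a gene share the RNA of the culture, so their agreement says nothing of the spread between cultures. The share with all probes on one side was not computed over all genes of the array.

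Other targets of p53 lay evenly on both sides of 0 under the percentile scaling. A list of 38 other p53 targets had 36 measured genes, 18 above and 18 below 0, with a median log2 fold change of -0.018. None (0) reached 1.5-fold upward, and 2 were past 1.5-fold downward. Of all genes, 3.36% were past 1.5-fold upward and 4.64% downward, so both counts of this list are near those shares. The lowest was *Gls2*, a mitochondrial glutaminase, with signals of 251 and 131 and a log2 fold change of -0.74. *Bax*, the pore-forming effector of apoptosis, had 18551 and 21520 at its brightest probe and a log2 fold change of 0.42, the highest of the list. *Sesn2*, a sestrin like *Sesn1*, had a log2 fold change of 0.014 and *Ppm1d*, the phosphatase that switches p53 signalling off, one of -0.079. Past 1.5-fold upward, the pathway genes counted 4 of 30 and the other targets 0 of 36, beside 3.36% of all genes. Both lists were written with earlier results of these data known, and the difference between them was not tested.

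Among 19 kinases, modifiers and partners of p53, 7 lay above and 12 below 0 under the percentile scaling, with a median log2 fold change of -0.036. Of all genes, 54.2% lay above 0 on that scale. *Chek1*, the checkpoint kinase of stalled replication forks, was the single gene of this list past 1.5-fold. It had signals of 160 and 77.1 at its brightest probe and a log2 fold change of -0.82. A count of 1 among 19 is near the share of all genes, of which 4.64% were past 1.5-fold downward and 3.36% upward. *Atm* and *Chek2*, the kinases that act on p53 after double-strand breaks, had log2 fold changes of -0.11 and -0.0015.

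Replication genes were lower on the siRNA-*Ppp2r5d* array. Of 42 measured DNA replication genes, 37 lay below 0, and the median log2 fold change was -0.50. Of the 42, 14 were past 1.5-fold downward and 0 upward, beside 4.64% and 3.36% of all genes. The 6 lowest were *Mcm5* (log2 fold change -1.94) and *Mcm6* (-1.19) of the replicative helicase, *Tk1* (-1.84) of thymidine salvage, *Cdc6* (-1.73) of origin licensing, *Pole* (-1.32) of the leading-strand polymerase and *Ccne1* (-1.09), the cyclin of S phase entry. Of 22 genes of G2 and mitosis that p53 is known to lower through p21 and the DREAM complex, 22 lay below 0, with a median log2 fold change of -0.72, and 18 were at least 1.5-fold lower. The 6 lowest were *Mybl2* (-1.18), *Melk* (-1.10), *Top2a* (-1.09), *Plk1* (-0.93), *Aurkb* (-0.91) and *Prc1* (-0.86). These genes also follow the share of dividing cells, and the arrays cannot tell a lower share apart from repression through p21.

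**Figure D3:**
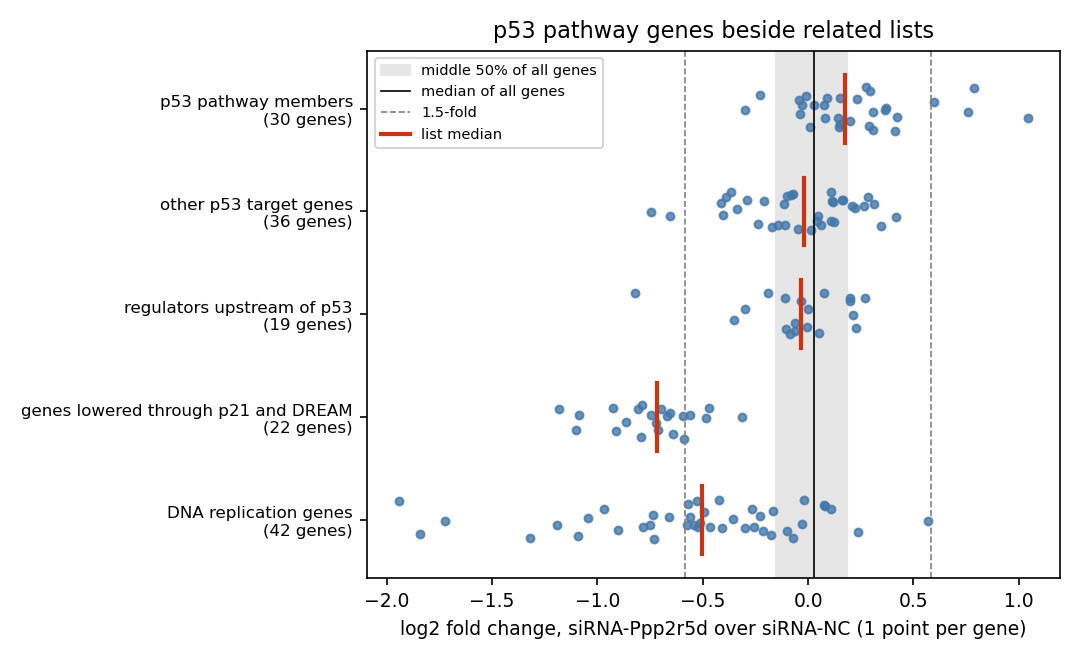
Each point is a gene measured on both arrays, with its log2 fold change of siRNA-*Ppp2r5d* over siRNA-NC on the horizontal axis and its list on the vertical axis. Red bars are list medians, the black line the median of all genes, the grey band the middle 50% of all genes and the dashed lines 1.5-fold. The medians stand at 0.18 for the p53 pathway genes, -0.018 for other targets, -0.036 for upstream regulators, -0.72 for genes lowered through p21 and DREAM and -0.50 for DNA replication genes.

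The values of the pathway genes were recomputed under 12 other ways of processing. These are not separate checks, since all use the same 2 arrays and some give nearly the same values. The deposited log2 values match the quantile normalization. The brightest probe and the median over probes cannot change the 15 genes with 1 detected probe. 15 of the 30 genes lay above 0 in all 13 versions and 3 below 0 in all, *Ddb2*, *Mdm4* and *Plk3*. *Ei24* ranged from 0.79 to 1.07 on the log2 scale and was past 1.5-fold in all 13. *Tnfrsf10b* ranged from 0.53 to 0.82 and *Zmat3* from 0.58 to 0.79, each past 1.5-fold in 12, and *Eda2r* ranged from 0.42 to 0.62 and was past 1.5-fold in 11. *Cdkn1a* ranged from 0.12 to 0.33 and *Mdm2* from 0.017 to 0.30, and neither was past 1.5-fold in any version.

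**Figure D4:**
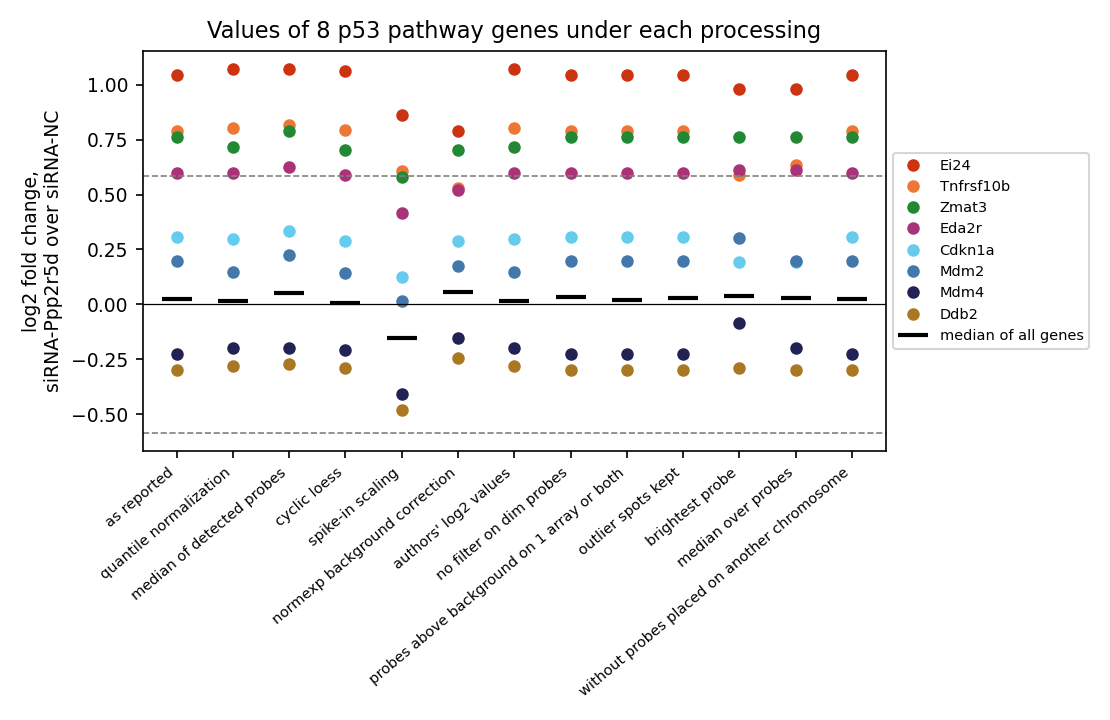
The log2 fold changes of 8 p53 pathway genes are shown under each of 13 ways of processing, with the reported one first, and black bars give the median of all genes. Dashed lines mark 1.5-fold. *Ei24* lies above the upper dashed line throughout, and 6 of the 8 genes, all but *Ei24* and *Tnfrsf10b*, have their lowest value under spike-in scaling, as has the median of all genes.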

How the data were processed

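One-colour arrays, 2 in all and grouped by their labels, measured RNA of MCMs given siRNA-NC or siRNA-*Ppp2r5d*. The authors deposited the intensity of every spot from Feature Extraction 10.7.1.1, corrected for background within the array, and a table of log2 values for 56605 probes. This deposited log2 table differed from a quantile normalization of the intensities by a median of 1.4e-05, and both of its columns had a median of 5.02. Array coordinates are of mm9.

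Control spots and outlier spots (126 for siRNA-NC, 95 for siRNA-*Ppp2r5d*) were left out, spots of a probe were averaged on the log2 scale, and the 75th percentile over 56604 probes was subtracted. Gene values were means of the log2 fold changes of probes detected well above background on each of the arrays. Names and promoters came from RefSeq tables of GRCm38.p6, in which 23666 of 37073 array names, and all 31 genes described, are symbols. *Trp53cor1* was not matched, *Ptprv* was not well above background and *Cop1* was matched as *Rfwd2*.

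With 1 array per condition no test was possible, and the number of arrays limits the precision. The genes and lists were chosen with earlier results of these data known. All 31 genes are named, and from other lists those past 1.5-fold, at most 6 per direction, plus *Bax*, *Sesn2*, *Ppm1d*, *Atm*, *Chek1* and *Chek2*. The values of 1 gene under this rule are not reported here. The alternatives were quantile, cyclic loess, spike-in (8 probes) and detected-median scaling, normexp background correction (offset 50), the deposited log2 values, other filters, other rules for probes and other thresholds. The median over probes and leaving out probes placed on another chromosome were added after seeing the data. The steps were tested on simulated data. The tools were limma 3.58.1 (R 4.3.3) and pandas 2.3.3, NumPy 2.4.6 and matplotlib 3.10.9 (Python 3.11.15).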

Additional observations from a re-analysis of the deposited data

How the results depend on the processing

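No paired analysis was possible because each condition has 1 array, and for the same reason no replicate could be left out. The cause of the shifts given here was not tested. Under spike-in scaling the median log2 fold change was -0.16 over all genes, -0.0058 over the p53 pathway genes (15 above and 15 below 0, 2 past 1.5-fold, *Ei24* and *Tnfrsf10b*, and 0 past 2-fold), -0.20 over other targets (4 at least 1.5-fold lower), -0.22 over upstream regulators, -0.90 over genes lowered through p21 and DREAM and -0.69 over replication genes. Under this scaling 25.2% of all genes lay above 0, 9.21% were at least 1.5-fold lower and 1.82% at least 1.5-fold higher. The share of lower genes among all past 1.5-fold went from 58.0% to 83.5%. Under normexp correction 3 pathway genes lay below 0, 2 were past 1.5-fold (*Ei24* and *Zmat3*) and 0 past 2-fold. The same correction gave 0 other targets at least 1.5-fold lower and medians of 0.026 for upstream regulators, -0.62 for genes lowered through p21 and DREAM and -0.37 for replication genes. With it, 62.9% of all genes lay above 0, 1.54% were at least 1.5-fold lower and 1.35% at least 1.5-fold higher. For the p53 pathway genes the median was 0.14 with cyclic loess and 0.21 with the brightest probe, which added *Aen* to those past 1.5-fold. 0 were past 2-fold with the brightest probe or the median over probes. Other targets had a median of 0.043 with the brightest probe and 0.027 with the median over probes. For genes lowered through p21 and DREAM the median was -0.76 with quantile normalization, cyclic loess and the authors' values. At thresholds of 1.2-fold and 2-fold, 14 and 1 of the pathway genes passed. At 1.2-fold, 13 of the 30 measured pathway genes were higher and 1 lower, beside 3117 higher and 3234 lower of all 20350 genes. At 2-fold the 1 pathway gene was higher. Of all genes, 1628 were past 1.5-fold, against 589 with normexp, 5211 with no filter on dim probes, 2698 with probes above background on 1 array or both, and 6351 and 398 at 1.2-fold and 2-fold.

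The error between spots grew as signals became dimmer, with a median SD of the log2 ratio of 0.035 over 276 probes above a signal of 1000 and 0.21 over 6 probes under 100. Values from dim probes, such as those of *Rprm*, *Trp73* and the third probes of *Ei24* and *Tnfrsf10b*, carry that error.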
